A study of Mus musculus with 33 samples.

Results

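Ribose methylation of ribosomal RNA was compared between the adult mouse heart and the heart of the embryo at day E16.5, late in gestation. The heart difference was taken from 6 of the 33 RiboMeth-seq libraries of a series on mouse development, 3 from adult heart and 3 from E16.5 heart. These 6 libraries were chosen by the tissue and stage that name the deposited sheets, and all sites that the authors listed as methylated were used. The series design text calls the 3 libraries of a group biological replicates. The other groups compared here were brain, kidney, liver and lung, each from adults and from E16.5 embryos, with 12 libraries per stage. The test at each site used the within-group spread of all 33 libraries. These include a further group, titled brain at E9.5, that was not compared with heart. The labels give no strain, sex, genotype, adult age or pooling, and every sample was whole-cell RNA from tissue, so the cell types of the heart were measured together. The deposited files hold read ends on rRNA alone, so the labelled tissue could not be checked against marker genes. The group means of the sheets equalled the authors' separate table of means for the same heart group at 91 of 108 sites in adults and at 104 of 108 at E16.5, while 0 sites matched the means of another group.

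Box C/D small nucleolar RNAs (snoRNAs) pair with pre-rRNA in the nucleolus and direct the methyltransferase fibrillarin to the 2'-OH of 1 nucleotide. Most of these guide RNAs are cut from introns of host genes, many of which encode ribosomal proteins or serve in translation. Many of the marks lie in functional regions of the ribosome, and some are found on part of the ribosomes alone. RiboMeth-seq reads them through alkaline cleavage: a methylated ribose resists it, so few fragments start or end there. The score of a site is 1 minus its read ends over the weighted mean of its neighbours, from 0 (no protection measured) to 1 (full protection).

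The windows of 21 nucleotides shown next hold the 8 sites whose scores differed between adult and E16.5 heart. They were read from the rRNA in the deposited sheets, 5′ to 3′, and the capital marks the methylated nucleotide. Site names use human rRNA numbering, as in the authors' table, with SSU for 18S and LSU for 28S rRNA. Start and end give the mouse numbering of the sheets.
LSU-Gm4593 (28S, 4266 to 4286): cgcagguucaGacauuuggug
SSU-Am576 (18S, 568 to 588): uccacuuuaaAuccuuuaacg
SSU-Um354 (18S, 346 to 366): uucgaacgucUgcccuaucaa
SSU-Gm436 (18S, 428 to 448): auuccggagaGggagccugag
SSU-Um121 (18S, 111 to 131): augguuccuuUggucgcucgc
LSU-Cm1327 (28S, 1145 to 1165): accaaggaguCuaacgcgugc
SSU-Um1804 (18S, 1796 to 1816): cggucgaacuUgacuaucuag
LSU-Am4541 (28S, 4214 to 4234): ccuacugaugAuguguuguug

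The adult libraries held 4600040, 23401879 and 1499369 read ends, and the E16.5 libraries held 14039284, 12530678 and 19809501. The third adult library was the shallowest of the 6, with a median of 179.3 read ends per neighbouring nucleotide against 792.9 to 4179 in the others and a lowest value of 19.5 at a tested site. The median score over sites was 0.951, 0.956 and 0.948 in adult heart and 0.938, 0.939 and 0.933 at E16.5, so the adult libraries read slightly higher as a whole. The labels name no batch. The authors' table of means had been corrected for barcode effects at 17 sites in adult heart and at 4 in E16.5 heart, and 2 sites were common to both. Adult heart shared 14 to 16 of its corrected sites with E16.5 kidney, liver and lung. E16.5 heart shared all 4 with E16.5 brain, adult kidney and adult lung, which each shared 2 with adult heart. It also shared 3 of its 4 with each of E16.5 kidney, liver and lung, so its placing rests on few sites. Adult brain and adult liver shared all 5 of theirs with adult heart and 2 with E16.5 heart. By these shared sites the adult and the E16.5 heart libraries fall into different inferred sets, and within heart stage and set cannot be told apart. The uncorrected score of each library was compared, and results that depend on the correction are given with both values.

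Of 107 tested sites, 6 were higher in adult heart and 2 were lower at an adjusted p under 0.05 (limma, Benjamini-Hochberg). The 8 calls are 7.48% of the sites, with 5.61% in the higher and 1.87% in the lower direction, and 19 sites had an unadjusted p under 0.05. Most sites scored high: 71 of 108 averaged 0.9 or more over the 6 libraries. Differences went both ways, with 64 tested sites higher and 43 lower in adult heart, and their median was 0.00406. The SE of a difference reached 0.26, at LSU-Um3904, so a site without a call is not thereby shown to be alike at both stages. Among the 8 called sites, 3 were intermediate or low at 1 or both stages, and differences there reached 0.4. SSU-Am576 was high at E16.5 and fell, and 4 sites that were already high at E16.5 rose. When the median score of every library was set equal, 4 calls remained (LSU-Gm4593, SSU-Um354, SSU-Gm436 and SSU-Um121), 3 higher and 1 lower. When read ends were thinned to the depth of the third adult library, 4 calls also remained (LSU-Gm4593, SSU-Um354, SSU-Gm436 and LSU-Cm1327). With the spread taken from the 6 heart libraries alone, 1 call remained (LSU-Gm4593). In the scatter of mean scores, most sites lie near the diagonal in the upper right corner.

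**Figure D1:**
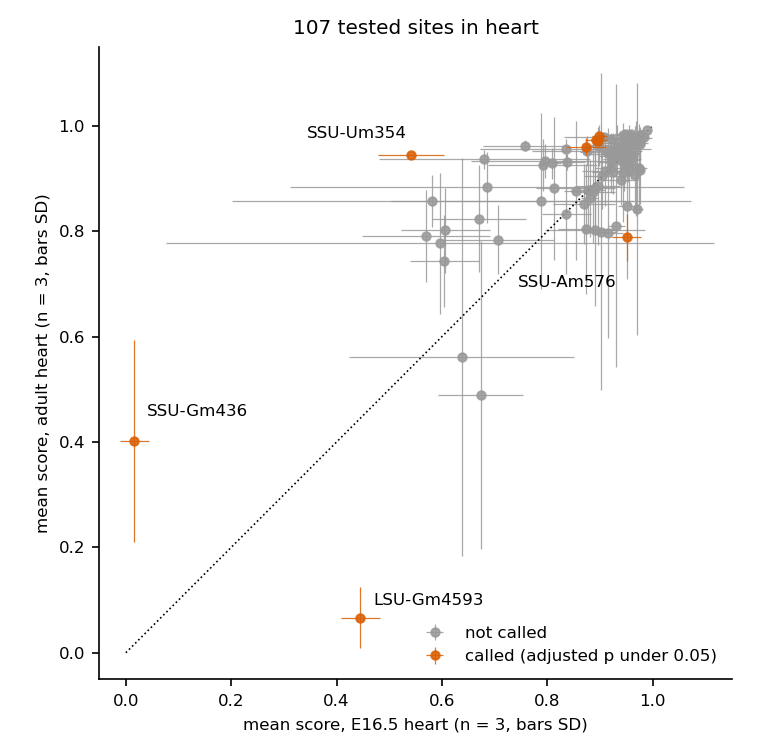
Mean RiboMeth-seq score of the 107 tested sites in E16.5 heart (horizontal axis) and adult heart (vertical axis), with bars for the SD of 3 libraries, a dotted line of equal scores and called sites in orange. LSU-Gm4593 (0.0664 against 0.446) and SSU-Am576 lie below the line, and SSU-Um354 and SSU-Gm436 lie above it.

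LSU-Gm4593, at mouse 28S position 4276, showed the largest decrease. Its guide is Snord78, which is encoded in an intron of Gas5, a noncoding host gene named for its accumulation in growth-arrested cells. The score was 0, 0.0996 and 0.0996 in the adult libraries and 0.413, 0.484 and 0.44 in the E16.5 libraries. By this score the mark was on part of the 28S rRNA of the fetal heart and at or near 0 in every adult library. The groups did not overlap. The window of 6 neighbours on each side also holds the listed sites LSU-Gm4588 and LSU-Um4590, at mouse positions 4271 and 4273. Few ends at a neighbour lower the neighbour mean and so the score of LSU-Gm4593. At position 4271 the read ends were 0.0522, 0.23 and 0.717 times the neighbour mean in the adult libraries. In the E16.5 libraries they were 0.302, 0.124 and 0.21 times it, so the stages overlapped there. At position 4273 they were 0.0991, 0.0891 and 0.065 times it in adults and 0.158, 0.318 and 0.166 times it at E16.5. At LSU-Gm4593 the first adult library had 1273 read ends against a neighbour mean of 1110, and the first E16.5 library had 1646 against 2803. The score fell by 0.379 ± 0.0456 (SE from the within-group spread of all 33 libraries, with 3 libraries a group, limma, adjusted p = 1.26e-06). Since a score is floored at 0, the difference can be understated, and on a log2 ratio scale without that floor the site had 1.76-fold more read ends relative to its neighbours in adult heart (adjusted p = 0.000221). The decrease was called in 13 of 13 other settings and in 6 of 6 fits that left out a heart library.

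SSU-Am576, at mouse 18S position 578 with the guide Snord93, also fell. Scores were 0.783, 0.747 and 0.836 in adult heart and 0.919, 0.967 and 0.967 at E16.5. All adult libraries lay below all E16.5 libraries, so a site that was almost fully protected in the fetal heart was protected on fewer 18S molecules in the adult heart. The score fell by 0.162 ± 0.0503 (adjusted p = 0.0474), which is 4.64-fold more read ends relative to the neighbours on the log2 ratio scale. The call lies close to the threshold: it was kept in 8 of 13 other settings and in 0 of 6 fits without 1 heart library, in which the difference ranged from -0.186 to -0.141. From 5' read ends the difference was -0.156 and from 3' read ends -0.146 (adjusted p = 0.595).

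SSU-Um354, at mouse 18S position 356, showed the largest increase. Its guide Snord90 lies in an intron of Rc3h2, which encodes an RNA-binding protein of the roquin family. The score was 0.946, 0.943 and 0.946 in adult heart and 0.585, 0.568 and 0.47 at E16.5. The adult libraries were nearly fully and evenly protected, while the E16.5 libraries were intermediate and more variable. The first adult library had 48 read ends at the site against a neighbour mean of 880.7, and the first E16.5 library had 1471 against 3543. The score rose by 0.404 ± 0.0627 (adjusted p = 5.18e-05), with 8.13-fold fewer read ends relative to the neighbours in adult heart. The 5' and 3' read ends gave rises of 0.376 and 0.459, each called. The rise was called in 12 of 13 other settings and in all 6 fits without 1 heart library. The exception was the fit on the 6 heart libraries alone.

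SSU-Gm436, at mouse 18S position 438, was almost unprotected in the fetal heart by summed read ends. Its guide Snord100 lies in an intron of Rps12, a gene for a protein of the small ribosomal subunit. Scores were 0, 0 and 0.0483 at E16.5 and 0.59, 0.407 and 0.208 in adult heart. The groups did not overlap, but the adult libraries spread widely, with an SD of 0.191, and the lowest was the shallowest library. The score rose by 0.386 ± 0.103 (adjusted p = 0.0202). From 5' ends the scores were 0.562, 0.378 and 0.129 in adult heart and 0, 0 and 0.0505 at E16.5. From 3' ends they were 0.637, 0.712 and 0.895 in adult heart and 0.173, 0.413 and 0.0368 at E16.5. The level thus depends on the kind of end in libraries of both stages, most of all in the third adult library. The rise was called from each kind of end, with 0.339 and 0.54, but not on the log2 ratio scale (1.77-fold fewer read ends, adjusted p = 0.0745) and in only 2 of 6 fits without 1 heart library.

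**Figure D2:**
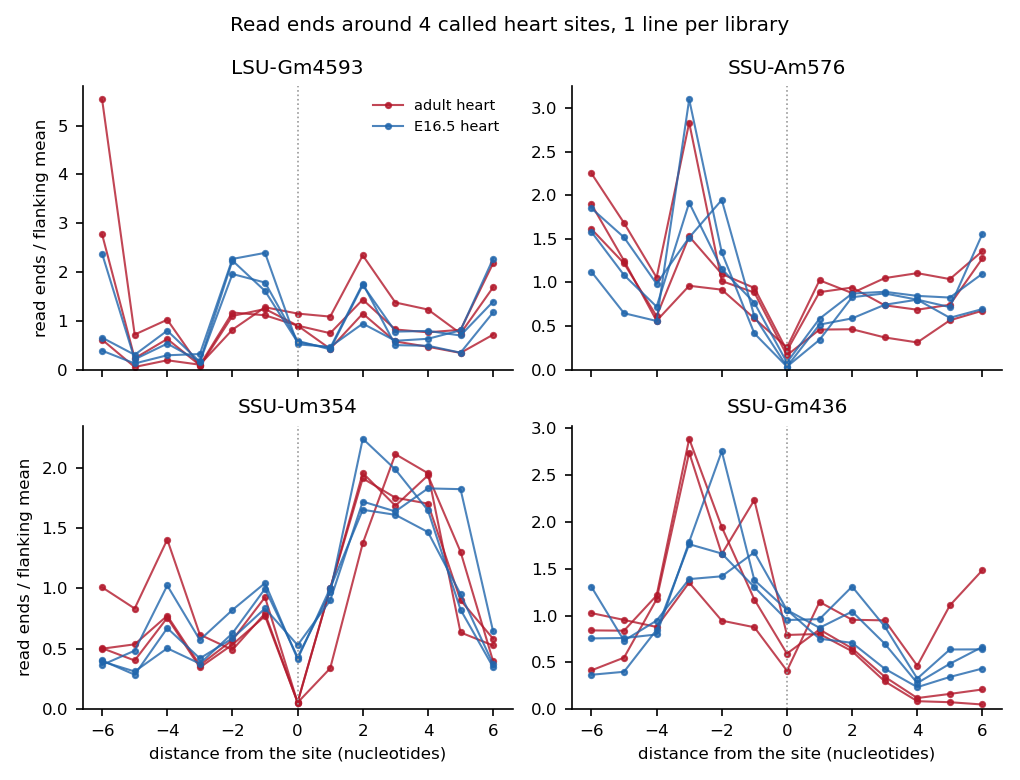
Read ends divided by the weighted neighbour mean (vertical axis) at distances of -6 to 6 nucleotides from 4 called sites (horizontal axis), with 1 line per heart library. The dip at distance 0 is deeper in adult than in E16.5 heart at SSU-Um354, shallower at SSU-Am576, and nearly absent in adult heart at LSU-Gm4593 and in E16.5 heart at SSU-Gm436.

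The profiles of read ends show these 4 sites in their surroundings. Counts at the neighbours also varied between libraries, and the third adult library had a peak of 5.54 times the neighbour mean at distance -6 from LSU-Gm4593. A window of the 2 nearest neighbours on each side, unweighted, leaves out that position and the 2 listed sites near LSU-Gm4593. All 8 calls were kept with it.

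The other 4 called sites were already high at E16.5, at 0.84 to 0.92, and were closer to 1 in the adult heart. At SSU-Um121, whose guide Snord4a lies in an intron of the ribosomal protein gene Rpl23a, adult scores were 0.977, 0.963 and 0.975 and E16.5 scores were 0.89, 0.901 and 0.9. The groups did not overlap, and the rise was 0.0751 ± 0.0155 (adjusted p = 0.00152), with 3.56-fold fewer read ends relative to the neighbours. At LSU-Cm1327, guided by Snord104, adult scores were 0.978, 0.97 and 0.973 and E16.5 scores were 0.878, 0.883 and 0.916. This rise was 0.0812 ± 0.0162 (adjusted p = 0.00128), with 3.85-fold fewer read ends, and the groups again did not overlap. Both rises were called in all 6 fits without 1 heart library and in 10 of 13 other settings.

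SSU-Um1804 and LSU-Am4541 passed the test by less. SSU-Um1804 lies near the 3' end of 18S rRNA and is guided by Snord20. Its adult scores were 0.984, 0.979 and 0.978, and its E16.5 scores were 0.915, 0.887 and 0.894, a rise of 0.0814 ± 0.0242 (adjusted p = 0.038). LSU-Am4541, guided by Snord63, scored 0.971, 0.943 and 0.969 in adult heart and 0.868, 0.839 and 0.914 at E16.5, a rise of 0.0873 ± 0.026 (adjusted p = 0.038). At neither site did the groups overlap. The call was lost in all 6 fits without 1 heart library at SSU-Um1804 and in 5 of 6 at LSU-Am4541. Both calls were also lost when library medians were set equal. At LSU-Am4541 the 5' ends gave a rise of 0.106 and the 3' ends 0.0187 (adjusted p = 0.879), so this difference is carried by the 5' ends.

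**Figure D3:**
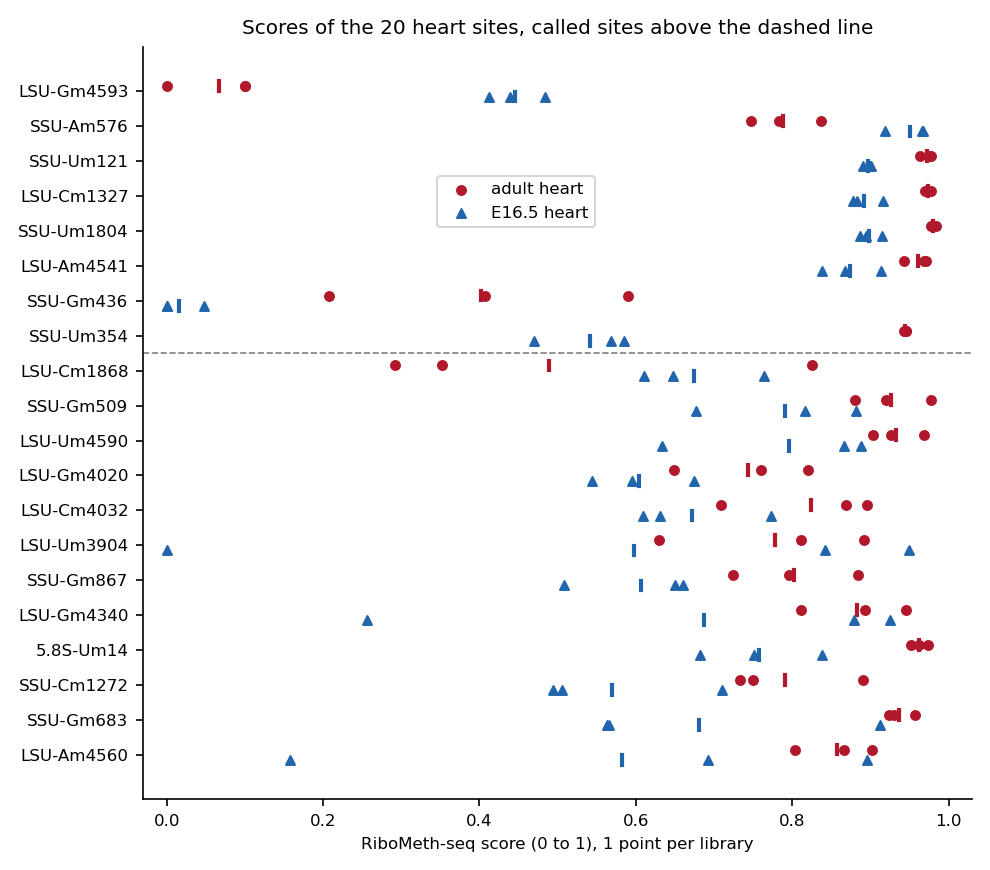
RiboMeth-seq score of each heart library (horizontal axis, 0 to 1) at the 8 called sites and the 12 uncalled sites with the largest differences, with vertical bars for group means of 3 libraries. At the 8 called sites above the dashed line the adult and E16.5 libraries do not overlap; below it several differences rest on 1 or 2 libraries.

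Non-overlapping groups of 3 libraries were found at 21 of the 107 sites, 19.6%, and thus at 13 uncalled sites. The 12 uncalled sites with the largest differences ranged in size from 0.135 to 0.276, above several called sites, but varied more between libraries. At 5.8S-Um14, guided by Snord71, adult scores were 0.952, 0.962 and 0.973 and E16.5 scores were 0.682, 0.751 and 0.838. The groups did not overlap, and the difference of 0.206 ± 0.0935 did not pass the test (adjusted p = 0.236). On the log2 ratio scale it did, with 6.36-fold fewer read ends in adult heart (adjusted p = 0.000337), and it was also called with 2 neighbours. Here the 3' ends gave a score of 1 in all 6 libraries, so the difference rests on 5' ends, with 0.209. At SSU-Gm867, guided by Snord98 from an intron of Ccar1, scores were 0.885, 0.725 and 0.796 against 0.65, 0.509 and 0.661, a difference of 0.195 ± 0.0766 (adjusted p = 0.169), which was called on the log2 ratio scale (2.07-fold fewer read ends, adjusted p = 0.0204) and with 2 neighbours. At SSU-Cm1272, guided by Snord66 from an intron of the translation factor gene Eif4g1, they were 0.734, 0.749 and 0.891 against 0.505, 0.494 and 0.71. That difference was 0.222 ± 0.123 (adjusted p = 0.354), and from 5' ends alone it was 0.36 and called (adjusted p = 0.0338). These 3 sites were called in the mean of the heart with kidney and lung described further on.

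Several other large differences were set by 1 or 2 libraries and by 3' ends. At LSU-Am4560, guided by Snord119, the second E16.5 library scored 0.157 beside 0.896 and 0.693, and adult scores were 0.903, 0.804 and 0.867. The difference of 0.276 was 0.0637 without that library. At SSU-Gm683, guided by Snord19 from an intron of the nucleolar GTPase gene Gnl3, E16.5 scores were 0.565, 0.912 and 0.564 against 0.931, 0.923 and 0.957 in adults. The difference of 0.257 was 0.0087 from 5' ends. The E16.5 scores rebuilt to give the authors' corrected mean were 0.881, 0.912 and 0.905. At LSU-Cm1868 the adult scores were 0.825, 0.352 and 0.291 against 0.648, 0.61 and 0.765 at E16.5, a difference of -0.185. Rebuilt to give the authors' corrected mean, the adult scores became 0.825, 0.756 and 0.837 and the difference turned positive, at 0.132. The rebuilt scores took 5' ends in 2 adult libraries and summed ends in all E16.5 libraries. With 5' ends in all 6 libraries the difference was -0.0332. LSU-Um3904 scored 0 in the second E16.5 library, and 0.951 there from 5' ends. LSU-Gm4340, guided by Snord60, scored 0.256 in the first E16.5 library and 0.797 there from 5' ends. None of these 5 sites passed the test from summed ends, from 5' ends or in the corrected score.

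**Figure D4:**
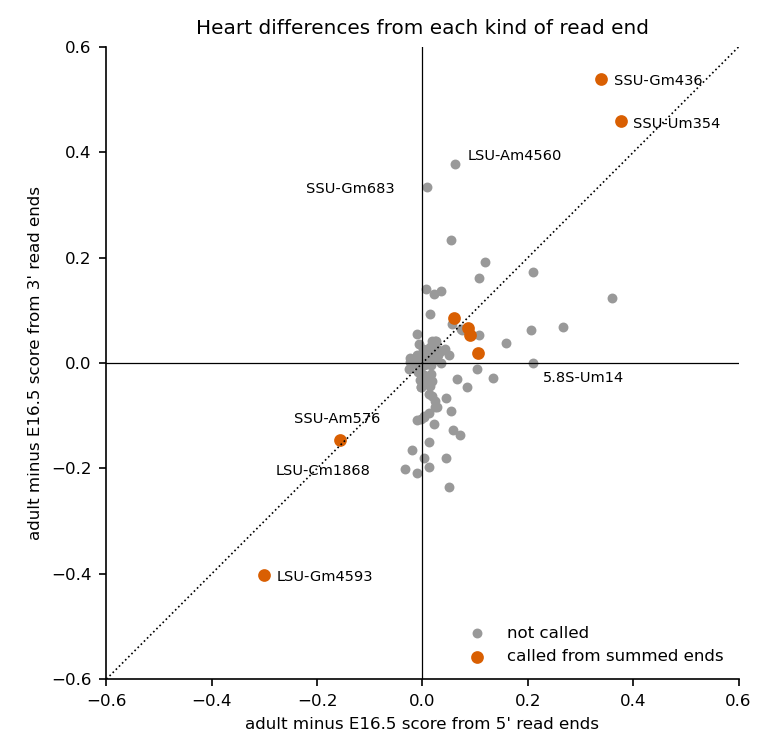
Adult minus E16.5 difference in score from 5' read ends (horizontal axis) and from 3' read ends (vertical axis) for the 107 tested sites in heart, with the line of equal differences dotted and sites called from summed ends in orange. All 8 called sites have the same sign from both kinds of end, while SSU-Gm683 and LSU-Am4560 have large differences from 3' ends alone.

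The 4 remaining sites of this group of 12 had moderate differences in heart. LSU-Cm4032, guided by Snord75 of Gas5, scored 0.895, 0.709 and 0.868 in adult heart and 0.631, 0.609 and 0.774 at E16.5, a difference of 0.153 ± 0.0651 (adjusted p = 0.206). LSU-Gm4020, guided by Snord102, scored 0.65, 0.76 and 0.821 against 0.595, 0.675 and 0.544, a difference of 0.139 ± 0.0555 (adjusted p = 0.172). Both were called from 5' ends alone, and in both the groups overlapped. LSU-Um4590 differed by 0.137 with groups that did not overlap, but by 0.0562 without the second E16.5 library. SSU-Gm509, guided by Snord11 from an intron of Nop58, a gene for a core protein of the box C/D particle, differed by 0.135 with overlapping groups (adjusted p = 0.236).

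Among sites with a mean under 0.75 in either heart group, 2 were not yet described. SSU-Cm462, guided by Snord14, scored 0.737, 0.127 and 0.819 in adult heart and 0.84, 0.415 and 0.657 at E16.5. The spread within each stage exceeded the difference of -0.0765. LSU-Am3846 scored 0.749, 0.86 and 0.744 against 0.817, 0.697 and 0.606, a difference of 0.0774 (adjusted p = 0.859).

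Beside the shares of 5.61% higher and 1.87% lower over all sites, the calls were spread over the groups of sites as follows. By molecule, 4 of 40 tested 18S sites were higher and 1 lower in adult heart, 2 of 65 tested 28S sites were higher and 1 lower, and neither 5.8S site was called. Medians were 0.00273 for 18S and 0.00519 for 28S sites, beside 0.00406 over all tested sites. By nucleotide, 3 of 20 Um sites were higher, 1 of 22 Cm sites was higher, and of 33 Am sites and 32 Gm sites 1 each was higher and 1 lower. The largest share by level was among the 12 sites with a mean heart score under 0.75: 2 were higher and 1 lower, with a median difference of 0.167. Of 71 sites with a mean of 0.9 or above, 4 were higher and none was lower, with a median of 0.00309. With equal library medians the calls were 3 higher in 18S, 1 lower in 28S, and 1 higher among the sites at 0.9 or above. None of the 22 tested sites with a listed neighbour within 2 nucleotides was called. Their median was 0.0104, beside 0.00269 for the 85 others.

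Sites were also grouped by the host gene of the guide. Of 10 sites guided from Gas5 introns, LSU-Gm4593 was lower, none was higher and the median difference was -0.00168. The next in size were LSU-Cm4032, given above, LSU-Am1521 (-0.0494) and LSU-Am3809 (0.0399), neither of which passed the test. The value at LSU-Am1521 rested on the first adult library, at 0.817 from summed and 0.99 from 5' ends, and from 5' ends the site was called in the opposite direction, at 0.0222 (adjusted p = 0.0175). Of 7 sites guided from Snhg1, a noncoding snoRNA host gene, none was called and the median was -0.000723. The largest were SSU-Cm1391 (-0.0888), SSU-Am1383 (-0.059), LSU-Am389 (0.0309) and LSU-Gm4166 (0.00584). Of 5 sites guided from Rpl13a, a gene for a protein of the large subunit, none was called and the median was 0.0544. At SSU-Um1326 (0.0702) and SSU-Gm1328 (0.0544) the groups did not overlap, but the third E16.5 library was lowest, at 0.82 and 0.877. Without it the differences were 0.0262 and 0.032, and from 5' ends they were 0.00693 and 0.014. LSU-Am1511 (-0.12) rested on the third adult library, at 0.502 there against 1 in the corrected score, and LSU-Cm4506 (0.0696) on the second E16.5 library, at 0.458 there against 0.986.

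Each of the 8 called heart sites had a difference of the same sign in brain, kidney, liver and lung, and the heart differences are given with the others in the plot by tissue. LSU-Gm4593, SSU-Am576 and LSU-Am4541 were called in all 4 other tissues, SSU-Um121, SSU-Um354 and SSU-Um1804 in 3, SSU-Gm436 in 2, and LSU-Cm1327 in 1. At SSU-Um354 the heart's rise of 0.404 stood beside 0.18 in brain, 0.358 in kidney, 0.39 in lung and 0.567 in liver. At LSU-Cm1327 the heart's rise of 0.0812 stood beside 0.0226 in brain, 0.0266 in kidney, 0.0321 in lung and 0.0988 in liver. In the mean of the heart difference with the average of the kidney and lung differences, additive differences between the inferred library sets cancel. This holds only if the sets were inferred correctly. All 8 heart sites were called in that mean, with LSU-Gm4593 at -0.365 ± 0.0279 and SSU-Um354 at 0.389 ± 0.0384. The heart difference is part of this mean and also picked the sites, so a call there is no independent check. SSU-Gm436, for example, was called at 0.259, while kidney (0.0372) and lung (0.226) were not called there by themselves. It called 17 sites higher and 2 lower in all, but it describes 3 tissues and not the heart alone.

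Whether the heart's change with age differed from that of the other 4 tissues was tested directly, against the mean of their differences. Of 107 sites 2 were called (1.87%), and 13 had an unadjusted p under 0.05. At LSU-Gm2411 adult heart scored 0.944, 0.844 and 0.8 and E16.5 heart 0.883, 0.896 and 0.864, overlapping groups with a difference of -0.0183 ± 0.0369. The difference was 0.121 in brain, 0.098 in kidney, 0.163 in lung and 0.221 in liver. The heart's difference was lower than their mean by -0.169 ± 0.0413 (adjusted p = 0.021). At LSU-Am4541 the heart's rise was 0.0873 beside 0.0949 in brain, 0.127 in lung, 0.143 in kidney and 0.508 in liver, and it was below their mean by -0.131 ± 0.029 (adjusted p = 0.0141). Liver's value is far above the other 3, and against brain alone (-0.00757) or kidney and lung (-0.0477) the site was not called. LSU-Gm2411 was not called in those comparisons either, at -0.139 and -0.149. By the inferred sets, adult heart goes with E16.5 kidney and lung and E16.5 heart with adult kidney and lung, so a difference between sets enters heart and these tissues with opposite signs and adds up in this comparison. Tissue and set cannot be told apart in it. Adult brain goes with adult heart and E16.5 brain with E16.5 heart, so against brain alone an additive difference between sets would cancel. This holds only if the sets were inferred correctly. Neither the comparison with brain alone nor that with kidney and lung called any site with limma. They had 9 and 18 sites at an unadjusted p under 0.05.

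**Figure D5:**
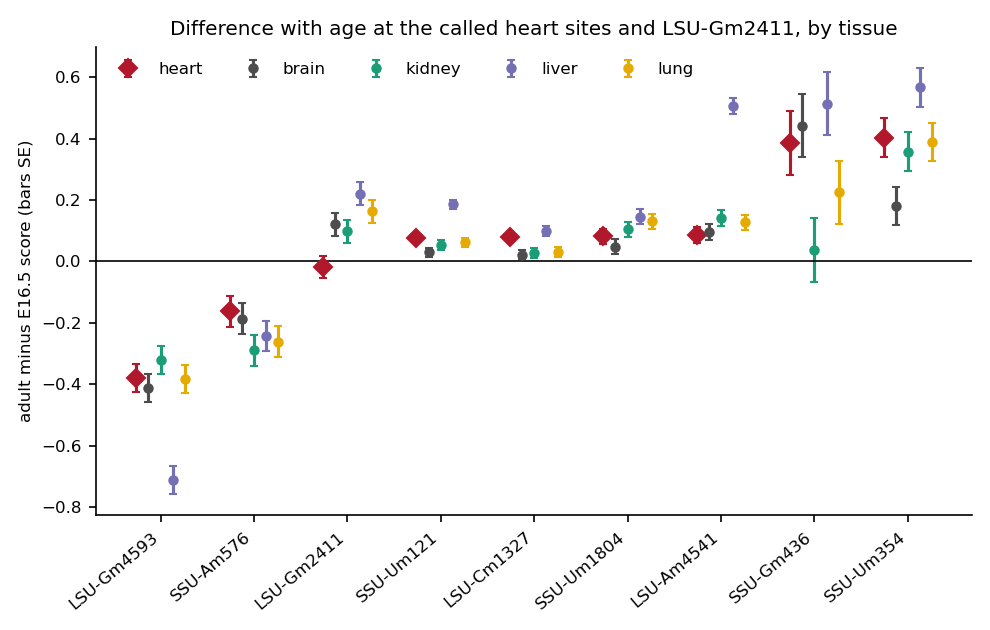
Adult minus E16.5 score with its standard error (vertical axis) in heart (diamonds) and 4 other tissues (circles) at the 8 called heart sites and at LSU-Gm2411 (horizontal axis). Heart lies on the same side of 0 as the other tissues at the 8 called sites, while at LSU-Gm2411 it is at -0.0183 and the others are at 0.098 to 0.221.

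Adult heart was then set against the mean of the other 4 adult tissues. Limma called 0 of 107 sites (0%), with 7 at an unadjusted p under 0.05, while 5' ends alone gave 1 call (LSU-Cm1868) and the log2 ratio scale gave 3 (LSU-Gm2411, LSU-Cm2791 and LSU-Um2824), all lower in heart. The 3 sites with the smallest p were LSU-Cm1868 (-0.277), LSU-Gm2411 (-0.0854) and LSU-Cm2791 (-0.0747), each with an adjusted p of 0.261. In the rebuilt corrected score the difference at LSU-Cm1868 was 0.0393. Adult heart scored 0.863 ± 0.0739 (SD, n = 3) at LSU-Gm2411, with the other adult tissues at 0.912 to 0.966. At SSU-Am576 it had the highest mean of the 5 adult tissues, 0.789 ± 0.0449 (SD, n = 3) beside 0.653 to 0.722, but the difference of 0.0991 was not called (adjusted p = 0.494).

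E16.5 heart differed from the mean of the other 4 E16.5 tissues at 1 of 107 sites (0.935%), with 11 at an unadjusted p under 0.05. That site was LSU-Am4541, higher in heart by 0.145 ± 0.0205 (adjusted p = 2.33e-05). Means at this site were 0.874 in heart, 0.855 in brain, 0.824 in kidney, 0.782 in lung and 0.454 in liver, so heart and brain were close and liver was far below. E16.5 brain, which shares the heart's corrected sites, offers a comparison within 1 inferred set. There LSU-Am4541 differed by 0.0189 (adjusted p = 0.994), and the 1 call was LSU-Gm3606, higher in heart by 0.0917 (adjusted p = 0.047). That call was lost from 5' ends, from 3' ends (-0.0167), with 2 neighbours, on the log2 ratio scale, when thinned, without any 1 of the E16.5 heart libraries and without the first or second E16.5 brain library. At SSU-Um354 the difference of E16.5 heart minus E16.5 brain was -0.233 ± 0.0627 (adjusted p = 0.054, and 0.0128 to 0.442 over the other settings, 6 of which called it), and at SSU-Gm436 the difference was -0.303 ± 0.103 (adjusted p = 0.122).

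At nucleotides outside the authors' list, and at least 7 nucleotides from any listed site, the same test was run on 5148 positions as a measure of how often heart libraries differ where no methylation is listed. It called 10 positions (0.194%), 3 higher and 7 lower in adult heart, with 537 at an unadjusted p under 0.05. None of the 10 had a mean score of 0.5 or more over the 33 libraries. At mouse 18S position 1075, scores were 0.172, 0 and 0 in adult heart and 0.511, 0.583 and 0.661 at E16.5. At mouse 28S position 1386, they were 0.371, 0.464 and 0.543 against 0, 0 and 0. Differences as large as those at the called sites with low scores, LSU-Gm4593 and SSU-Gm436, were thus also measured at a few positions with no listed methylation.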

How the data were processed

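Fragments of alkali-treated tissue RNA were size-selected, joined to linkers and sequenced with Ion Proton technology, per the labels' protocols. Cutadapt 2.0 and Bowtie2 2.3.4.1 are listed in the submitters' processing notes, without settings or the origin of the rRNA reference. Per the file headers, the authors deposited counts of 5' and 3' read ends and their sum at 6878 rRNA nucleotides in each library, with no normalization. They also deposited the fraction methylated, per the file headers, which was rebuilt from the counts with the 6 neighbours on each side, weighted from 1 to 0.5, within 5e-10. For each group, a deposited overview holds the authors' mean score at 108 listed sites, corrected for barcode effects at 107 of 1188 means. Of these, 98 were rebuilt by taking 5' ends alone in 1 or more libraries; the other 9 were not, so uncorrected scores were tested.

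All sheets carry the same column names, those of adult lung, so groups were read from sheet names and replicates from the names' endings. Replicate heart libraries differed by more than sampling noise (chi-square per degree of freedom 114.9 to 505.5). Sites with a neighbour mean of at least 10 in all 33 libraries were tested, which left out LSU-Cm3848. Scores were fitted with limma 3.58.1 in R 4.3.3, with a mean for each of 11 groups of 3 libraries and moderated variances following the mean score. Tests were two-sided, with Benjamini-Hochberg adjustment over 107 sites. The fit was tested on simulated data. Tables and figures used Python 3.11.15, numpy 2.4.6, pandas 2.3.3 and matplotlib 3.10.9.

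Depth ranged from 463388 to 35156406 read ends per library. Reads carry no molecular identifiers, so counts are not independent molecules. The members, the lists, the tests and the alternatives were chosen with earlier results of these data known. Named were all called heart sites, uncalled ones by size up to 20 in all, sites with a heart mean under 0.75, sites called with a size of at least 0.1 in the mean over 5 tissues, the 3 smallest p or called sites of other contrasts, and up to 4 sites per snoRNA host. Guides were assigned from general knowledge of human and mouse snoRNAs, and introns of hosts were looked up in RefSeq's GRCm38 annotation where listed. Alternatives were other minimums of 50 or none, corrected scores, 5' or 3' ends, 2 neighbours, log2 ratios with a pseudocount of 0.5, equal medians, thinning, other variance models, a replicate block, fewer libraries and other tissue sets.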

Additional observations from a re-analysis of the deposited data

Results flagged for a closer look

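At 2 sites the adult minus E16.5 difference in heart departed from the mean difference of brain, kidney, liver and lung in a test of that departure (limma, adjusted p = 0.021 and 0.0141). At LSU-Gm2411 the value was -0.169 ± 0.0413, and heart was the only one of the 5 tissues without a positive difference. At LSU-Am4541 it was -0.131 ± 0.029, with a positive difference in all 5 tissues and the largest in liver. By the sets inferred from the authors' corrections, a difference between sets would add up in this comparison, so tissue and set cannot be told apart. Against brain alone such a difference would cancel by the same inference, and there neither site was called. In the test against the mean of the other tissues, neither site was called without the third E16.5 heart library. Without the second adult heart library LSU-Cm2791 was called in their place. Without the third adult, the first E16.5 or the second E16.5 heart library LSU-Am4541 alone was called, and without the first adult library both were called together with LSU-Cm1868.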

How the results depend on the processing

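The 8 heart calls became 15 (13 higher, 2 lower) from 5' ends, 3 from 3' ends, 4 with equal library medians, 4 when thinned, 1 on the 6 heart libraries alone (LSU-Gm4593; 15 at an unadjusted p under 0.05) and 19 in the mean with kidney and lung. Leaving out 1 heart library gave 4 to 6 calls. There were 4 without the first or second library of either stage (LSU-Gm4593, SSU-Um354, SSU-Um121 and LSU-Cm1327), 5 without the third adult library and 6 without the third E16.5 library. The 2 departures from other tissues became 4 from 5' ends, 0 from 3' ends (15 at an unadjusted p under 0.05), 1 with 2 neighbours, 1 on the log2 ratio scale, 0 with equal medians (14), 0 when thinned (15), 0 against brain and 0 against kidney and lung; leaving out 1 library gave 0 to 3. Adult heart against other adult tissues gave 0 calls, 1 from 5' ends, 3 on the log2 ratio scale and 0 to 2 with 1 library left out: 2 without the first adult heart library (LSU-Cm1868, LSU-Gm2411) and 1 without the second (LSU-Cm2791). E16.5 heart against other E16.5 tissues gave 1 call, 3 from 5' ends, 0 from 3' ends (10 at an unadjusted p under 0.05), 0 on the log2 ratio scale (8) and 1 to 2 with 1 library left out, SSU-Gm1447 being added without the third E16.5 lung library. The other settings kept these 4 counts within 1.5 times. The cause of these shifts was not tested.

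Signs turned mostly at uncalled sites. In the corrected score, values became 0.132 at LSU-Cm1868, 0.0476 at LSU-Gm4588, 0.00833 at LSU-Am1521, 0.0458 at LSU-Am1511 and, for LSU-Cm1868 in adult heart against other adult tissues, 0.0393. From 5' ends they became -0.0257 at LSU-Um3904, 0.0497 at SSU-Um1442, 3.48e-05 at LSU-Gm2411, 0.0219 at LSU-Gm4588, 0.0222 at LSU-Am1521 (called there), 0.0454 at LSU-Am1511, 0.00209 at SSU-Am1383 and -0.00636 at LSU-Am389. From 3' ends they became -0.012 at LSU-Um3904, -0.0449 at SSU-Cm174, 0.0138 at LSU-Gm2411, 0.00645 at LSU-Gm4588, -0.0617 at LSU-Cm4506 and, in E16.5 heart minus E16.5 brain, -0.0167 at LSU-Gm3606, which had been called. With 2 neighbours they became 0.0353 at LSU-Gm2411 and 0.167 at LSU-Gm4588, on the log2 ratio scale 0.0187 at SSU-Um1442 and 0.244 at LSU-Gm4588, thinned 0.018 at SSU-Um1442 and -0.00348 at LSU-Gm4166, and with equal medians -0.009 at LSU-Gm4166. With 1 heart library left out, differences ranged across 0 at LSU-Gm4340 (-0.0188 to 0.316), LSU-Um3904 (-0.118 to 0.357), SSU-Cm462 (-0.205 to 0.141), SSU-Cm174 (-0.0231 to 0.0984), SSU-Um1442 (-0.0437 to 0.0425), LSU-Gm2411 (-0.059 to 0.0132), LSU-Gm4588 (-0.0618 to 0.0518), LSU-Am1521 (-0.0825 to 0.00192), LSU-Gm4166 (-0.0135 to 0.0187), LSU-Am1511 (-0.199 to 0.0343) and LSU-Cm4506 (-0.0952 to 0.166). Over the named sites and settings other than leaving out a library, 532 values kept sign and side of the threshold, 37 lost a call and 19 gained one with the same sign.

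Replicate numbers did not pair the heart libraries: deviations of same-numbered libraries correlated at 0.0048, 0.0878 and 0.0112 over sites, and not every library correlated best with its own number. With the replicate block 10 sites were called, the 8 and also LSU-Gm1303 and SSU-Gm867. The same block gave 3 calls for the departure from other tissues, 0 for adult and 1 for E16.5 heart against other tissues. Depth limits mainly the third adult library, and the test at unlisted nucleotides was added after the data were seen.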

Other observations

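Sites that were called in the mean difference of the 5 tissues with a size of 0.1 or more, but not in heart, are given beside that mean. The tissues did not share in it evenly, and at some of these sites liver was far above the others. At SSU-Gm1447, guided by Snord127, adult heart scored 0.96, 0.901 and 0.927 and E16.5 heart 0.79, 0.825 and 0.812. The groups did not overlap, and the heart difference of 0.121 ± 0.0947 (limma, adjusted p = 0.634, but called on the log2 ratio scale) stood beside a mean of 0.269 over the 5 tissues, of which heart is 1. At SSU-Am590, guided by Snord62, the heart difference was 0.0646 beside a mean of 0.118, with overlapping groups. Liver was at 0.365 there, with brain at 0.0239, lung at 0.0486 and kidney at 0.09. At SSU-Um1442, guided by Snord61 from an intron of Rbmx, a gene for an RNA-binding protein, the heart difference was -0.0129 beside a mean of 0.202. Brain was at 0.0145, lung at 0.171, kidney at 0.246 and liver at 0.592. SSU-Cm797, guided by Snord105, had a heart difference of 0.0776 with the third E16.5 library at 0.755 and the other two at 0.934 and 0.938. SSU-Cm174, LSU-Gm3923 and LSU-Gm4588 had heart differences of 0.0225, 0.0684 and -0.00334, and at each of them the third adult library was the lowest of the 3 adult libraries, at 0.725, 0.725 and 0.723. At LSU-Gm3923 that library scored 1 from 5' ends, and the difference was 0.206 from 5' ends (adjusted p = 0.0231) and 0.16 in the corrected score (adjusted p = 0.0884).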
